A study of Arabidopsis thaliana with 18 samples.

Results

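Roots of Arabidopsis thaliana seedlings mutant for VND7 were compared with wild-type Col-0 roots, both treated with 1 µM abscisic acid (ABA) for 8 h. The comparison used 6 of the 18 RNA libraries of the series, 3 of the mutant vnd7 in ABA and 3 of Col-0 in ABA, chosen by their genotype and treatment labels alone. The 3 vnd7 and 3 Col-0 mock libraries and the 3 libraries of the triple mutant vnd123 (vnd1 vnd2 vnd3) in ABA were set beside them. Seedlings were 5 days old, and each library came from the roots of a pool of 50 to 100 of them, per the labels. The sample records also give 1 cm of root for each vnd7 and Col-0 library. The labels name neither the allele of vnd7 nor the number of lines behind it, and no label says whether the replicates were separate cultures. The p-values therefore reflect the spread among these libraries, which may be technical.

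VND7 is a NAC transcription factor, a DNA-binding protein of the plant-specific NAC family, that can switch a cell to the fate of a xylem vessel, the dead, hollow tube that conducts water. VND1 to VND6 are its relatives, and they act partly in its place. Vessel cells build a secondary wall of cellulose, xylan and lignin, in part through MYB factors, and then digest their contents with proteases and nucleases. ABA, a hormone that plants make when water is short, is known to promote xylem formation in roots.

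Total counts were 47945973 to 57756275 per library in vnd7 ABA and 38325491 to 46853414 in Col-0 ABA. Replicates of a group were distinct libraries, since the chi-square between pairs was 13.3 to 25.1 per degree of freedom. On the first principal component of the 6 libraries, which held 27.7% of the variance, all vnd7 libraries lay apart from all Col-0 libraries. The second component held 20.4% and set Col-0 ABA 2, at 36.7, apart from Col-0 ABA 1, at -26.2, and Col-0 ABA 3, at -11.5. Of the markers of root tissue, 13 of 13 genes of the endodermis and 13 of 13 of the root hair and epidermis passed the filter on low counts. Levels below are CPM, the reads of a gene relative to the scaled size of its library, and a gene is called at a Benjamini-Hochberg adjusted p under 0.05 in edgeR's quasi-likelihood test over all 20869 tested genes.

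Of 20869 genes, 34 were called between vnd7 and Col-0 roots in ABA (0.163%), 16 of them higher in vnd7 (0.0767%) and 18 lower (0.0863%). The count depended on the test: DESeq2 called 159 genes, and edgeR with only the 6 compared libraries called 56, while all 34 were among those of DESeq2 and 28 among the 56. At least a 2-fold difference was reached by 14 of them, 5 higher and 9 lower. The lower genes included VND7, the lignin laccase gene LAC11, 3 genes of families named after pectin-cutting enzymes, and IRT1 and FRO2, which take up iron. Those that were higher included the floral repressor genes MAF5 and MAF4, the proton pump gene HA3 and non-coding RNAs. The 3 vnd7 libraries and the 3 Col-0 libraries did not overlap for any of the 34, but that held for 3196 genes in all (15.3%). At an unadjusted p under 0.05 there were 2665 genes (12.8%), 1495 higher (7.16%) and 1170 lower (5.61%). The same threshold passed 1017 genes (4.87%) for vnd7 against Col-0 in mock. The median log2 difference over all genes was -0.01.

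**Figure D1:**
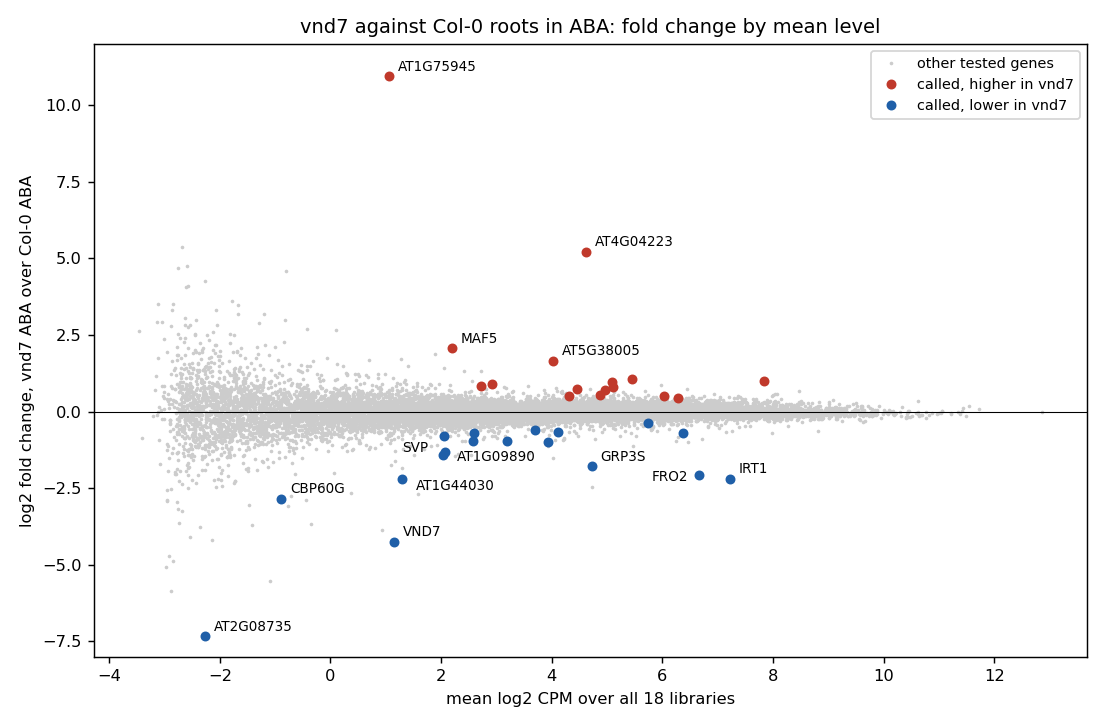
Log2 fold change of vnd7 ABA over Col-0 ABA (vertical axis) against the mean log2 CPM over all 18 libraries (horizontal axis) for each of the 20869 tested genes. Red points are the 16 genes called higher in vnd7, blue points the 18 called lower, and grey points genes that were not called. AT1G75945 and AT2G08735 had 0 reads in a group, so their plotted values are fitted ones and give no bound.

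VND7 transcript was strongly reduced in vnd7 roots. VND7 had 0.25, 0.23 and 0.41 CPM in the vnd7 ABA libraries, from 14, 11 and 19 reads, against 5.5, 5.46 and 5.79 CPM in the Col-0 ABA libraries. All mutant values lay far below all wild-type values, and 5.29% of the Col-0 mean was left. The log2 difference was -4.24 ± 0.30 (SE; adjusted p = 1.16e-07). In mock, 17.1% was left, with 0.605, 0.227 and 0.354 CPM in vnd7 and 2.27, 2.13 and 2.55 CPM in Col-0. ABA changed 6942 genes in vnd7 (33.3%) and 6532 in Col-0 (31.3%) against mock. The difference of VND7 between ABA and mock was -0.42 on the log2 scale in vnd7, which did not pass (adjusted p = 0.406), and 1.27 in Col-0 (adjusted p = 0.00034). The test of that contrast between the genotypes, at -1.69 ± 0.43, did not pass over all genes either (adjusted p = 0.895).

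None of the other VND genes was called in vnd7. VND4 had 13.6, 13.3 and 12.7 CPM in vnd7 ABA, against 9.75, 10.8 and 10 CPM in Col-0 ABA. The groups did not overlap, and the log2 difference of 0.37 ± 0.09 gave an adjusted p of 0.14, or 0.0382 with DESeq2. VND3 likewise had 7.39, 6.91 and 7.33 CPM in vnd7 ABA, against 6.16, 5.49 and 5.57 CPM in Col-0 ABA, without overlap, and differed by 0.33 ± 0.13 (adjusted p = 0.326). VND5 (0.37 ± 0.21), VND1 (0.35 ± 0.51), VND2 (0.29 ± 0.20) and VND6 (0.22 ± 0.30) had positive differences with overlapping libraries and adjusted p of 0.456 to 0.793. VND6 turned to -0.021 without vnd7 ABA 3. The mock differences were 0.40 for VND4, 0.42 for VND3, 0.34 for VND5, 0.32 for VND1, -0.17 for VND2 and 0.51 for VND6, and none was called.

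**Figure D2:**
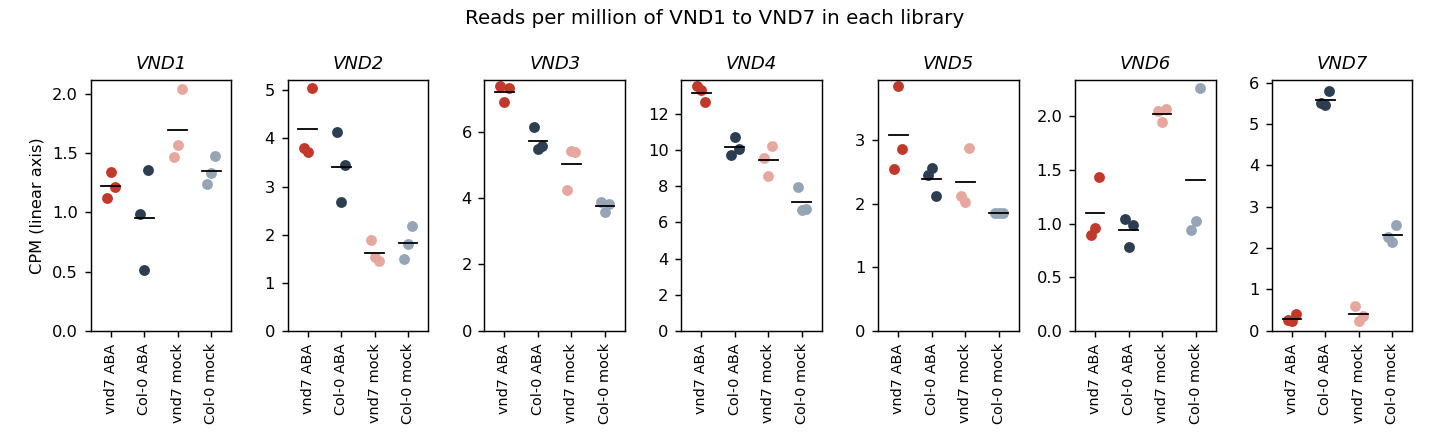
CPM (linear axes that start at 0) of VND1 to VND7 in each library of vnd7 ABA, Col-0 ABA, vnd7 mock and Col-0 mock. Each point is 1 library and each bar the mean of 3. VND7 lies at 0.23 to 0.41 CPM in vnd7 ABA, below every Col-0 library, while the ABA libraries of VND1, VND2, VND5 and VND6 overlap between the genotypes.

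The loci beside VND7 gave a check on its surroundings. Of the 10 annotated loci on each side, 13 of 20 were tested and 0 were called by edgeR, with a median log2 difference of -0.11 and 3 of the 13 at an unadjusted p under 0.05, against 12.8% of all genes. HISN6B, a histidine synthesis gene and the nearest protein-coding neighbour upstream, had 0.196, 0.272 and 0.0855 CPM in vnd7 ABA, against 0.304, 0.0541 and 6.71 CPM in Col-0 ABA. The high value was that of Col-0 ABA 3, with 306 reads, and the other libraries overlapped (-3.67 ± 1.32, adjusted p = 0.3). HISN6B is 98.1% identical to AT5G10330, so its reads may not be placed with certainty.

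Among the listed secondary wall genes, LAC11 was the 1 called. Laccases such as LAC11 oxidise the alcohols that polymerise to lignin, and in Arabidopsis stems LAC11 acts together with LAC4 and LAC17. LAC11 had 84.3, 102 and 83.6 CPM in vnd7 ABA, against 142, 149 and 144 CPM in Col-0 ABA. The highest vnd7 library lay well below the lowest Col-0 library, and the log2 difference was -0.69 ± 0.09 (adjusted p = 0.000796). In mock, LAC11 had 56.3, 48.6 and 49.8 CPM in vnd7 and 78.3, 79.9 and 72.5 CPM in Col-0, a difference of -0.58 ± 0.09 that was also called (adjusted p = 0.00977). LAC11 shares exon sequence with AT5G03250 on the other strand, a gene at -0.08 (adjusted p = 0.824), and the library kit did not mark strand.

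Another laccase gene, which is not on that list, was higher. LAC1 had 28.9, 27.8 and 23.4 CPM in vnd7 ABA, against 18.9, 17.7 and 18.8 CPM in Col-0 ABA. All vnd7 values were higher, by 0.53 ± 0.10 on the log2 scale (adjusted p = 0.023), while the mock difference was 0.18 (adjusted p = 0.947). Its call ended without vnd7 ABA 1 or 2 or without any 1 of the Col-0 ABA libraries, with an adjusted p of up to 0.181. Of the 26 tested genes of lignin synthesis and polymerisation, 0 were called higher and 1 lower, LAC11, and the median difference was 0.06. The difference was positive for 22 of them and negative for 4, which was not tested. LAC4 had 107, 118 and 107 CPM in vnd7 ABA, against 106, 110 and 94 CPM in Col-0 ABA. LAC17 had 76, 80.9 and 79 CPM in vnd7 ABA, against 71.9, 78.4 and 67.8 CPM in Col-0 ABA.

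A further 3 called genes are annotated by families named after pectin-cutting enzymes, which does not show that each cuts pectin. They were brought together by their annotation after their values were seen, and no list of pectin genes was counted. Pectin is the gel of the primary wall and of the layer between cells, and lyases and polygalacturonases cut its chains. AT1G09890, annotated as a rhamnogalacturonate lyase family gene, had 2.38, 2.32 and 2.16 CPM in vnd7 ABA, against 6.71, 5.92 and 5.86 CPM in Col-0 ABA. Its vnd7 libraries lay together at less than the lowest Col-0 library, and the difference was -1.43 ± 0.16 (adjusted p = 7.54e-05). It was called in mock as well, at -0.98 ± 0.16 (adjusted p = 0.00977). AT1G70500, of the pectin lyase-like superfamily, had 6.99, 7.03 and 7.56 CPM in vnd7 ABA, against 15.8, 12.3 and 13.8 CPM in Col-0 ABA, with no overlap (-0.96 ± 0.12, adjusted p = 0.000176). In mock it had 6.95, 6.72 and 7.73 CPM in vnd7 and 8.41, 10.2 and 8.71 CPM in Col-0, a difference of -0.35 that was not called (adjusted p = 0.727). AT1G70500 thus stood at about the same level in all vnd7 libraries, and its log2 difference between ABA and mock was 0.01 in vnd7 (adjusted p = 0.946) and 0.62 in Col-0 (adjusted p = 0.000273). The difference between those, at -0.60 ± 0.16, was not called, as no gene was. AT1G23460, of the same superfamily, had 16.7, 15.7 and 14.9 CPM in vnd7 ABA, against 25.5, 25.8 and 24 CPM in Col-0 ABA. These groups were clearly apart as well (-0.67 ± 0.08, adjusted p = 0.000176), and the mock difference of -0.41 was not called (adjusted p = 0.085).

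AT1G70500 had a TERE, the element found before genes of vessel cells, and LAC11, AT1G09890, AT1G23460 and LAC1 had none. The upstream sequences of AT1G70500 and, as 1 of those without a TERE, LAC11 are shown. Each is the 300 bases before the annotated gene start in TAIR10.1 (RefSeq), in the direction of the gene, at chr1:26568872-26569171 on the minus strand for AT1G70500 and chr5:779425-779724 on the minus strand for LAC11. Capitals mark the TERE, spelled CTTNAAAGCNA and searched on both strands, which ends 12 bases before the start of AT1G70500.
AT1G70500: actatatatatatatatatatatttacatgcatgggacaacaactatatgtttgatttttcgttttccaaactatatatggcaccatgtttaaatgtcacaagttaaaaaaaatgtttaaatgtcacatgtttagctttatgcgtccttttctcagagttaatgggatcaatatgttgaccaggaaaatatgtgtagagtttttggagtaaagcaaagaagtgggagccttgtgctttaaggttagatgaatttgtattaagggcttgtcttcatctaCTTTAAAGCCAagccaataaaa
LAC11: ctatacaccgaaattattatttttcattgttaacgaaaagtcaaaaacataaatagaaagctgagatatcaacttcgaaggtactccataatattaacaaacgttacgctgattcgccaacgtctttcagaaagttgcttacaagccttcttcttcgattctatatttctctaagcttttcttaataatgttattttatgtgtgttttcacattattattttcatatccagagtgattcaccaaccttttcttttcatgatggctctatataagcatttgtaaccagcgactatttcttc
The protein-coding called genes other than VND7, 16 lower and 14 higher, were searched. A TERE was found in 1 of the 16 lower genes and 0 of the 14 higher ones, against 0.454% of 20265 windows of tested genes. The core of the ABA-responsive element, ACGTG, was found in 3 of 16 lower and 5 of 14 higher genes, against 26.5% of all windows. The element bound by secondary wall NAC factors, SNBE, was found in 8 of 16 and 6 of 14, against 48.3%. A match describes these letters and is no evidence of binding.

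The lists of the vessel programme other than lignin held VND7 as their 1 called gene. Of 12 tested NAC regulators it was the 1 called, and the median difference of the list was 0.24. Of 17 secondary wall transcription factors, 22 cellulose and xylan genes, 16 genes of vessel death and wall patterning and 11 of xylem patterning, 0 were called by edgeR, with medians of 0.01, 0.13, 0.05 and 0.01. At an unadjusted p under 0.05, 1, 5, 1 and 0 of them were higher and 1, 0, 2 and 0 lower, in the same order, against 7.16% higher and 5.61% lower among all genes. The 5 higher cellulose and xylan genes, of 22 tested, were a larger share than among all genes, and this was not tested. The lateral organ boundaries gene LBD30, which acts with the VND factors in vessel formation, had 3.06, 3.66 and 3.31 CPM in vnd7 ABA, against 4.91, 4.73 and 4.06 CPM in Col-0 ABA (-0.45 ± 0.18, adjusted p = 0.331). MYB52, a MYB factor of the secondary wall, was at 0.31 ± 0.13 (adjusted p = 0.341). CESA7, a cellulose synthase of the secondary wall, was at 0.30 ± 0.10 (adjusted p = 0.28), and GUX2, which puts side groups on xylan, at 0.25 ± 0.08 (adjusted p = 0.24).

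XSP1 came closest to the threshold among the genes of vessel death. XSP1, a protease gene of the xylem, had 23.9, 26.6 and 24.3 CPM in vnd7 ABA, against 31.4, 37.3 and 32.8 CPM in Col-0 ABA. The libraries did not overlap, and the difference was -0.44 ± 0.09 with an adjusted p of 0.0715, or 0.00545 with DESeq2. ACL5, which makes thermospermine, a polyamine that holds back xylem differentiation, had 48.8, 51.4 and 50.9 CPM in vnd7 ABA, against 61.5, 67.4 and 63.1 CPM in Col-0 ABA (-0.35 ± 0.09, adjusted p = 0.194). Both stood near 0 in mock, at -0.09 for XSP1 and 0.05 for ACL5. In bulk roots, fewer cells of a type and less RNA per cell cannot be told apart.

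**Figure D3:**
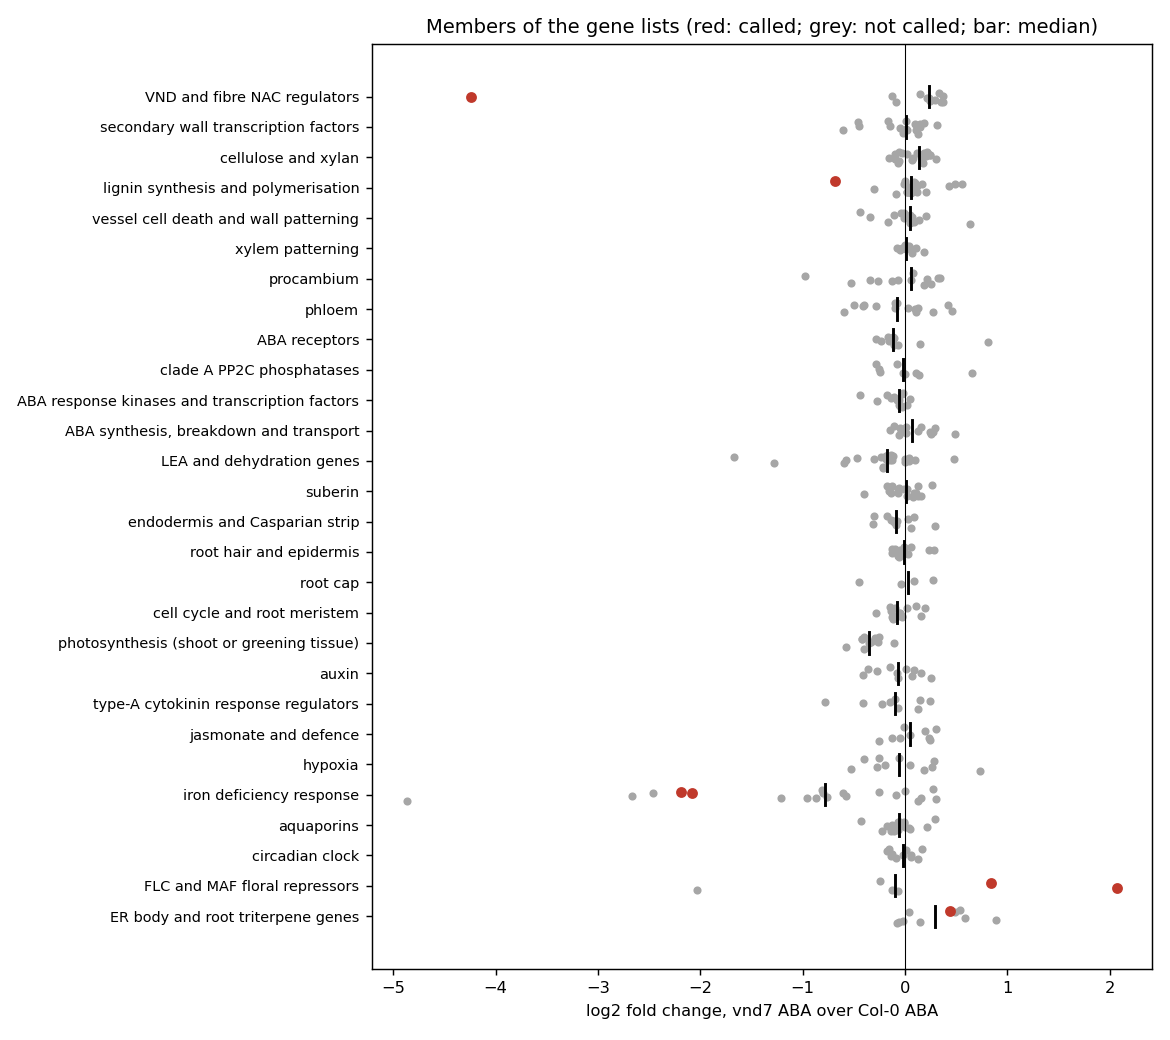
Log2 fold change of vnd7 ABA over Col-0 ABA for each tested member of the 28 gene lists, with 1 row per list. Red points were called, grey points were not, and the black bar is the list's median. Calls stand in 5 lists, and 13 of the 20 iron genes lie to the left at an unadjusted p under 0.05.

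The iron uptake genes IRT1 and FRO2 were lower in vnd7 than in Col-0 roots in ABA, and 0 of the iron genes were called in mock by edgeR. IRT1 encodes the transporter that brings ferrous iron into epidermal cells, and FRO2 the reductase that makes it from ferric iron. IRT1 had 18.5, 15.7 and 8.5 CPM in vnd7 ABA, against 69.8, 36.7 and 89.2 CPM in Col-0 ABA. FRO2 had 15, 11.4 and 7.07 CPM in vnd7 ABA, against 47.1, 31.5 and 62.9 CPM in Col-0 ABA. Every vnd7 library lay below every Col-0 library for both genes, though the Col-0 libraries themselves differed widely and Col-0 ABA 2 was the lowest. The log2 differences were -2.19 ± 0.38 for IRT1 (adjusted p = 0.0138) and -2.08 ± 0.37 for FRO2 (adjusted p = 0.0149). Both calls ended without vnd7 ABA 2 or 3 or without Col-0 ABA 1 or 3, with adjusted p of up to 0.087 for IRT1 and 0.0976 for FRO2.

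In mock the iron uptake genes were much higher in both genotypes and the groups overlapped. IRT1 had 403, 251 and 221 CPM in vnd7 mock and 439, 356 and 209 CPM in Col-0 mock, a difference of -0.20 (adjusted p = 0.964). FRO2 had 267, 173 and 159 CPM in vnd7 mock and 278, 247 and 147 CPM in Col-0 mock (-0.16, adjusted p = 0.969). ABA against mock was -4.35 in vnd7 and -2.36 in Col-0 for IRT1 on the log2 scale, and -4.16 and -2.24 for FRO2, all called. The interaction, which tests whether that response differs between the genotypes, was -2.00 ± 0.52 for IRT1 and -1.91 ± 0.49 for FRO2 and was not called for either.

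Most of the other iron genes had negative differences that did not pass. Of 20 tested genes, 0 were called higher and 2 lower, and 16 had a negative difference. At an unadjusted p under 0.05, 13 were lower, IRT1 and FRO2 among them, and 0 higher, against 5.61% and 7.16% of all genes. The 13 were read in the same 6 libraries and are not separate observations. IRT1 and FRO2, for instance, were both lowest in vnd7 ABA 3 and in Col-0 ABA 2 within their groups. The libraries of the 2 groups did not overlap for 4 of the 20, against 15.3% of all genes. The differences ran from -4.86 to 0.30. The median was -0.78 in ABA and 0.00 in mock. CYP82C4, which makes an iron-binding coumarin, had 3.17, 2.01 and 0.748 CPM in vnd7 ABA, against 11.4, 5.27 and 16.6 CPM in Col-0 ABA (-2.47 ± 0.61, adjusted p = 0.134). The 4 bHLH factors of the iron response, BHLH38, BHLH39, BHLH100 and BHLH101, were at -0.81, -0.57, -1.21 and -0.96, with adjusted p of 0.203 to 0.248. For each of them the lowest Col-0 ABA library overlapped the vnd7 range, and it was Col-0 ABA 2 each time. FIT, their partner and the master regulator of iron uptake, had 37.4, 43.9 and 36.2 CPM in vnd7 ABA and 43.7, 33.7 and 47.9 CPM in Col-0 ABA (-0.09 ± 0.11). F6'H1, the first enzyme of the coumarins, was at 0.30 ± 0.15 (adjusted p = 0.399). Without Col-0 ABA 2, 4 genes of the list were called. The part of that library's position in the iron values was not tested further.

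Floral repressor genes of the MADS-box family went in both directions. MAF4 and MAF5 are relatives of the floral repressor FLC and lie next to each other on chromosome 5. MAF5 had 4.82, 5.29 and 5.38 CPM in vnd7 ABA, against 0.963, 1.16 and 1.54 CPM in Col-0 ABA. The groups lay far apart, by 2.07 ± 0.20 on the log2 scale (adjusted p = 5.83e-06). MAF4 had 6.34, 8.41 and 6.41 CPM in vnd7 ABA, against 4.08, 3.35 and 4.37 CPM in Col-0 ABA, without overlap (0.84 ± 0.13, adjusted p = 0.00444). With only the 6 compared libraries in the fit the MAF4 call ended (adjusted p = 0.0658). Both genes were also called in mock, MAF5 at 2.37 ± 0.20 (adjusted p = 1.21e-06) and MAF4 at 1.12 ± 0.13 (adjusted p = 0.000114).

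SVP, another MADS-box repressor of flowering, was lower. SVP had 3.31, 2.62 and 3.63 CPM in vnd7 ABA, against 9.4, 7.05 and 7.63 CPM in Col-0 ABA. The groups were apart (-1.33 ± 0.20, adjusted p = 0.00255), and the mock difference of -0.93 ± 0.20 was not called (adjusted p = 0.162). FLC had 0.356, 0.0837 and 0.235 CPM in vnd7 ABA, against 1.19, 0.757 and 0.878 CPM in Col-0 ABA, and its difference of -2.03 ± 0.45 did not pass (adjusted p = 0.0862). MAF1, MAF2 and MAF3 were at -0.25, -0.07 and -0.13. Of the 6 tested FLC and MAF genes, 2 were called higher and 0 lower, and the median was -0.10.

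**Figure D4:**
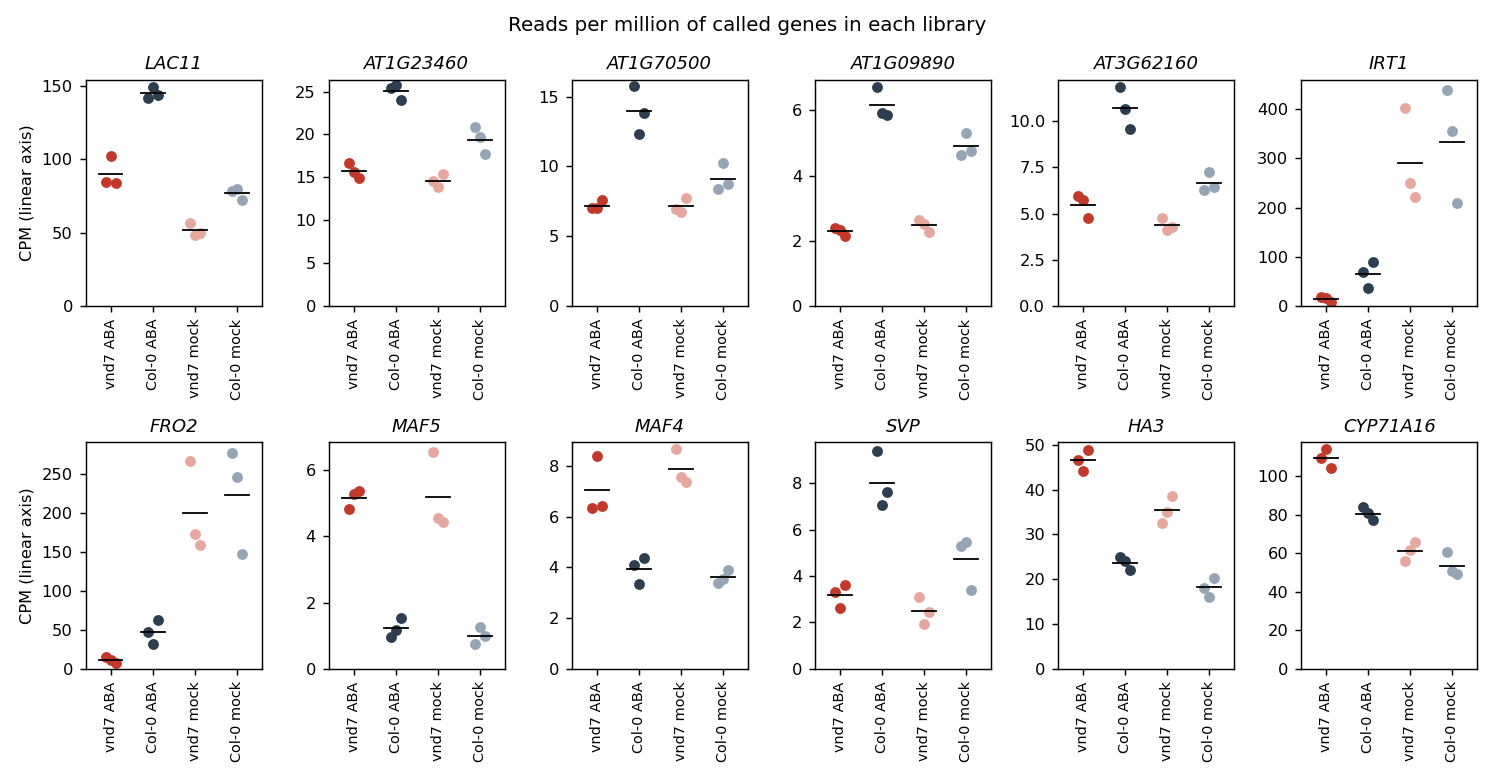
CPM (linear axes that start at 0) of 12 called genes in each library of vnd7 ABA, Col-0 ABA, vnd7 mock and Col-0 mock. Each point is 1 library and each bar the mean of 3. IRT1 and FRO2 are lower in vnd7 than in Col-0 in ABA and overlap in mock, while MAF5, MAF4 and HA3 are higher in vnd7 under both treatments.

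The 2 largest positive differences were those of an uncharacterised and a non-coding locus, and both were called in mock too. AT1G75945, a locus for an uncharacterised protein on chromosome 1, had 4.91, 4.23 and 6.07 CPM in vnd7 ABA, 762 reads in all, and 0 reads in the Col-0 ABA libraries. It was at least 206-fold higher in vnd7, against a floor of 3 reads over the Col-0 group (adjusted p = 1.09e-07). In mock it had 1123 reads in vnd7 and 1 read in Col-0, a ratio of 995 with an exact 95% counting interval of 178 to 39346. The vnd123 ABA libraries held 0 CPM of it, so transcripts of AT1G75945 were found in vnd7 and, apart from that 1 read, in neither Col-0 nor vnd123 ABA. The non-coding RNA AT4G04223 had 25.5, 34.8 and 27.9 CPM in vnd7 ABA, against 0.608, 0.351 and 1.32 CPM in Col-0 ABA. Every vnd7 library was far above (5.22 ± 0.24, adjusted p = 1.67e-10), and the mock difference was 4.66 ± 0.22.

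AT4G04223 matches another called gene in sequence. It is 99.1% identical to AT3G56210, an ARM repeat gene, over 61.9% of its exons, so the placing of their reads is uncertain. AT3G56210 had 48.4, 55.3 and 48.5 CPM in vnd7 ABA, against 27.3, 19.9 and 25.6 CPM in Col-0 ABA, all higher in vnd7 (1.06 ± 0.09, adjusted p = 1.99e-06). AT5G38005, a non-coding RNA on chromosome 5, had 16.6, 18.5 and 17.1 CPM in vnd7 ABA, against 6.74, 5.16 and 4.63 CPM in Col-0 ABA, again with all vnd7 values higher (1.66 ± 0.12, adjusted p = 1.92e-07). Both were called in mock, at 1.00 ± 0.09 for AT3G56210 and 1.23 ± 0.12 for AT5G38005.

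In the other direction, the long non-coding RNA AT2G08735 had 0 reads in vnd7 ABA and 50 reads in Col-0 ABA. It was at least 20.6-fold lower in vnd7, against a floor of 3 reads over the vnd7 group (adjusted p = 0.0272). Its call ended without any 1 of the 6 libraries (adjusted p of up to 0.155), and it was not tested where a mean of at least 1 CPM was asked for. In mock it had 12 reads in vnd7 and 64 in Col-0. The ratio was 0.166 with an exact 95% counting interval of 0.0816 to 0.311.

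HA3 and several other genes were higher in vnd7 whichever treatment was given. HA3, a plasma membrane proton pump that energises uptake into the cell, had 46.7, 44.1 and 48.9 CPM in vnd7 ABA, against 24.9, 24.1 and 22 CPM in Col-0 ABA. Its groups lay far apart in ABA (0.98 ± 0.11, adjusted p = 4.71e-05) and in mock (0.96 ± 0.11, adjusted p = 8.5e-05). ARP9, an actin-related protein gene, had 28.6, 27.6 and 27.5 CPM in vnd7 ABA, against 16.5, 16.8 and 16.4 CPM in Col-0 ABA. The replicates of each group were close to each other, and the differences were 0.75 ± 0.07 in ABA (adjusted p = 3.74e-06) and 0.93 ± 0.07 in mock (adjusted p = 2.06e-07).

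AT5G25560, a RING-type zinc finger gene, had 334, 325 and 388 CPM in vnd7 ABA, against 184, 178 and 166 CPM in Col-0 ABA. All vnd7 values were higher, by 0.99 ± 0.08 in ABA (adjusted p = 6.69e-07) and 0.68 ± 0.08 in mock (adjusted p = 0.000131). Its exons overlap those of AT5G25570 on the same strand, a gene at -0.18 (adjusted p = 0.654). AT5G35940, a mannose-binding lectin gene, had 35.4, 32.2 and 29.2 CPM in vnd7 ABA, against 15.2, 19.4 and 20.6 CPM in Col-0 ABA. It was higher without overlap (0.81 ± 0.14, adjusted p = 0.0132), as in mock (0.86 ± 0.14, adjusted p = 0.00977), but its ABA call ended without vnd7 ABA 1 or Col-0 ABA 1 (adjusted p of up to 0.1).

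Single genes of specialised root metabolism were higher in vnd7 in ABA. Arabidopsis roots make the triterpenes thalianol and marneral with enzymes that are encoded in gene clusters. CYP71A16, which oxidises marneral, had 109, 114 and 104 CPM in vnd7 ABA, against 83.7, 80.7 and 77.1 CPM in Col-0 ABA. It was higher in all vnd7 libraries (0.44 ± 0.08, adjusted p = 0.0219), with 0.19 in mock (adjusted p = 0.947). Its call ended without vnd7 ABA 1 or 2 or without any 1 Col-0 ABA library (adjusted p of up to 0.105). MRN1, the marneral synthase gene, had 150, 171 and 156 CPM in vnd7 ABA, against 89.2, 95.5 and 73.8 CPM in Col-0 ABA, and did not pass (0.88 ± 0.21, adjusted p = 0.108).

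The thalianol genes THAD, THAH and THAS1 also had non-overlapping libraries, as 15.3% of all genes had, and did not pass. THAD was at 0.58 ± 0.12 (adjusted p = 0.0534), THAH at 0.49 ± 0.11 (adjusted p = 0.0932) and THAS1 at 0.54 ± 0.15 (adjusted p = 0.203). AT5G47980, an acyltransferase gene beside THAD, had 26.5, 19.6 and 22.1 CPM in vnd7 ABA, against 14.3, 13.5 and 14.2 CPM in Col-0 ABA, and was called (0.70 ± 0.12, adjusted p = 0.0108). In mock AT5G47980 was at -0.01, and its ABA call ended without vnd7 ABA 1 or Col-0 ABA 2 (adjusted p of up to 0.0973). AT3G32030, of the terpenoid cyclase superfamily, had 6.07, 7.83 and 6.15 CPM in vnd7 ABA, against 4.18, 3.19 and 3.33 CPM in Col-0 ABA. It was higher in all vnd7 libraries (0.90 ± 0.15, adjusted p = 0.0108), but the call ended without vnd7 ABA 2 or Col-0 ABA 2 or 3 (adjusted p of up to 0.0664). AT3G32030 is 96.7% identical to AT3G31425, so its reads may be split. Of the 10 tested genes of the endoplasmic reticulum (ER) body and root triterpenes, 1 was called higher and 0 lower, with a median of 0.29. The libraries did not overlap for 5 of the 10. At an unadjusted p under 0.05, 5 were higher and 0 lower, against 7.16% and 5.61% of all genes. PYK10, the main protein of ER bodies, was at -0.02.

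The lists of defence and hormone genes held no call: 0 of 9 tested genes of jasmonate and defence, 0 of 11 of auxin and 0 of 9 type-A cytokinin response regulators were called by edgeR, with 0, 1 and 1 at an unadjusted p under 0.05. Called genes outside these lists, described from here on, were grouped after their values were seen. CBP60G, a transcription factor that promotes salicylic acid synthesis, had 0.0534, 0.126 and 0.0427 CPM in vnd7 ABA, against 0.405, 0.676 and 0.548 CPM in Col-0 ABA. The groups did not overlap (-2.85 ± 0.49, adjusted p = 0.0126), whereas the mock difference was 0.12. CBP60G had few reads, and its call ended without vnd7 ABA 1 or 3, without Col-0 ABA 2 or with only the 6 compared libraries (adjusted p of up to 0.119). ST2A, a sulfotransferase that inactivates hydroxylated jasmonate, had 14.3, 12.2 and 13.4 CPM in vnd7 ABA, against 31.1, 28 and 19.9 CPM in Col-0 ABA. All vnd7 values were lower (-0.98 ± 0.15, adjusted p = 0.00255), and the mock difference was -0.32 (adjusted p = 0.947). SDR3, a short-chain dehydrogenase gene, had 32.6, 32.4 and 34.2 CPM in vnd7 ABA, against 45.2, 41.4 and 40.9 CPM in Col-0 ABA, and 0.02 as its mock difference. The ABA difference of SDR3 was -0.36 ± 0.07 (adjusted p = 0.02), and its call ended in every leave-out but that of Col-0 ABA 3, and with only the 6 compared libraries (adjusted p of up to 0.131).

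GRP3S, a small glycine-rich protein gene, had 7.17, 5.15 and 9.04 CPM in vnd7 ABA, against 27.5, 23.6 and 22.1 CPM in Col-0 ABA. The vnd7 libraries lay well below (-1.78 ± 0.24, adjusted p = 0.000796), and in mock the difference was -0.98 ± 0.22 (adjusted p = 0.229). AT1G44030, of the cysteine/histidine-rich C1 family, had 0.178, 0.188 and 0.192 CPM in vnd7 ABA, against 1.22, 0.595 and 0.768 CPM in Col-0 ABA (-2.20 ± 0.36, adjusted p = 0.0085). These came from few reads, 10, 9 and 9 in vnd7 ABA and 48, 22 and 35 in Col-0 ABA. AT1G44030 was under 1 CPM on average in both groups. The gene was at -1.24 in mock (adjusted p = 0.0741), and its ABA call ended without vnd7 ABA 1, without Col-0 ABA 1 or with only the 6 compared libraries (adjusted p of up to 0.0913). GRP3S and AT1G44030 were lower in ABA than in mock in both genotypes. For GRP3S, ABA against mock was -2.17 in vnd7 and -1.37 in Col-0, and for AT1G44030 it was -3.48 and -2.52, all called.

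Among the remaining lower genes, the acyltransferase gene AT3G62160 had 5.94, 5.75 and 4.74 CPM in vnd7 ABA, against 11.9, 10.6 and 9.59 CPM in Col-0 ABA (-0.96 ± 0.15, adjusted p = 0.00589). Its call ended without vnd7 ABA 3 or Col-0 ABA 1 (adjusted p of up to 0.051). HEI10, which in meiosis promotes crossovers, was at -0.71 ± 0.12 in ABA (adjusted p = 0.0143) and -0.63 ± 0.12 in mock (adjusted p = 0.0832). HEI10 overlaps other annotated exons, among them those of MUM4 at 0.02, and its call ended in every leave-out but that of Col-0 ABA 1, and with only the 6 compared libraries (adjusted p of up to 0.0867). AT3G20270, a lipid-binding protein gene, was at -0.78 ± 0.14 (adjusted p = 0.0195) and AT1G69890, of the actin cross-linking DUF569 family, at -0.59 ± 0.11 (adjusted p = 0.0219). AT3G20270 lost its call without vnd7 ABA 1 or 3, without Col-0 ABA 1 or 2 or with only the 6 compared libraries (adjusted p of up to 0.131). AT1G69890 lost its call without any 1 of the 6 (adjusted p of up to 0.107).

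Of the remaining higher genes, SFH3, a lipid-transfer protein gene, had 26.2, 26.9 and 25.5 CPM in vnd7 ABA, against 16.9, 17.8 and 20.3 CPM in Col-0 ABA. It was higher in all vnd7 libraries (0.51 ± 0.08, adjusted p = 0.00444) and its mock groups overlapped, with 16.7, 17.2 and 17.3 CPM in vnd7 and 18.4, 17.2 and 15.8 CPM in Col-0. SFH3 shares exon sequence with AT2G21530, which was not tested. AT1G19900, a glyoxal oxidase-related gene, was at 0.50 ± 0.09 (adjusted p = 0.0233), and its call ended without any 1 of the 6 libraries (adjusted p of up to 0.135).

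The mock libraries, which share no library with the ABA comparison, gave a second look at the 34 genes. In mock, 14 genes were called in vnd7 against Col-0 (0.0671%), 10 higher (0.0479%) and 4 lower (0.0192%). Of these, 13 were also among the 34, with the same sign, 10 higher and 3 lower. They made up 38.2% of the ABA calls and 92.9% of the mock calls. The 3 lower in both were VND7, LAC11 and AT1G09890. The other 21 genes were called in ABA and not in mock. Of all 34, 29 had the same sign in mock, against 63.4% of all tested genes, and 30 had a smaller difference there, though the 34 were picked by their ABA values.

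**Figure D5:**
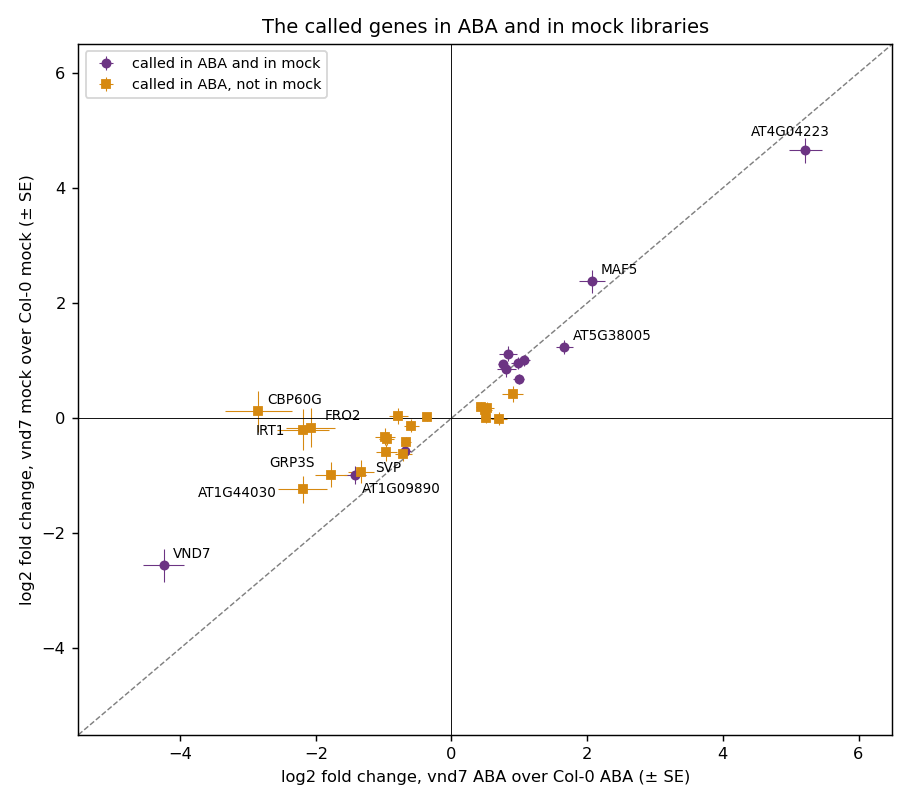
Log2 fold change of vnd7 over Col-0 in ABA (horizontal axis) and in mock (vertical axis) for the called genes, with SE as bars and the line of equal change dashed. Purple circles were called in both treatments, orange squares in ABA and not in mock. AT1G75945 and AT2G08735, with 0 reads in a group, are left out, and CBP60G, IRT1 and FRO2 lie left of 0 in ABA and near 0 in mock.

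A call in ABA and none in mock does not show that a gene differs between treatments, so the interaction was tested. It called 0 of 20869 genes with edgeR (0%) and 0 with DESeq2, and the smallest adjusted p over all genes was 0.895. At an unadjusted p under 0.05 it had 835 genes (4%). CBP60G had an interaction of -2.96 ± 0.61, SFH3 0.52 ± 0.11, AT5G47980 0.71 ± 0.16, AT3G20270 -0.82 ± 0.20 and SDR3 -0.38 ± 0.09, none of them called. For the genes called in both treatments it was 0.56 ± 0.35 for AT4G04223, -0.30 ± 0.28 for MAF5, 0.02 ± 0.15 for HA3, -0.11 ± 0.13 for LAC11 and -0.18 ± 0.10 for ARP9.

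The triple mutant vnd123 in ABA was tested against vnd7 directly, with 142 genes called (0.68%), 116 higher in vnd7 (0.556%) and 26 lower (0.125%). Of the 34 genes, 18 were also called in vnd123 ABA against Col-0 ABA, 9 higher and 9 lower, all 18 with the same sign as in vnd7. GRP3S, ST2A, MAF4, AT3G56210, AT1G70500, AT1G44030 and AT1G69890 were among them. Both mutants were set against the same Col-0 ABA libraries there. Between the mutants, 7 of the 34 were called and 27 were not. ARP9 was 0.50 ± 0.07 higher in vnd7 than in vnd123 (adjusted p = 0.000268), with 28.6, 27.6 and 27.5 CPM in vnd7 and 19.9, 20 and 19.3 CPM in vnd123. AT1G09890 was at -1.09 ± 0.16 (adjusted p = 0.000657), with 2.38, 2.32 and 2.16 CPM in vnd7 and 4.86, 4.43 and 5.34 CPM in vnd123. HEI10 was at -0.90 ± 0.12 (adjusted p = 0.000282), AT5G47980 at 0.58 ± 0.12 (adjusted p = 0.0188) and AT1G19900 at 0.47 ± 0.09 (adjusted p = 0.0142). VND7 and AT1G75945 were called as well.

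Other values stood side by side in both mutants, each set against the same 3 Col-0 ABA libraries, so they are not independent of each other. MAF5 was at 2.07 in vnd7 and 2.71 in vnd123, HA3 at 0.98 and 0.79, AT4G04223 at 5.22 and 5.75, AT5G38005 at 1.66 and 2.05 and AT5G25560 at 0.99 and 0.79, in that order of mutants. LAC11 was at -0.69 in vnd7 and -0.81 in vnd123, AT1G23460 at -0.67 and -0.83, AT3G62160 at -0.96 and -1.14, IRT1 at -2.19 and -1.11 and FRO2 at -2.08 and -1.01. In vnd123 against Col-0, 227 genes were called (1.09%), IRT1 and FRO2 not among them (adjusted p = 0.223 and 0.255), nor in vnd7 against vnd123 (adjusted p = 0.312 and 0.302).

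Genes of ABA signalling and of its downstream response were not called. Of 11 tested ABA receptors, 9 clade A phosphatases that these receptors inhibit, 16 kinases and transcription factors of the response and 14 genes of ABA synthesis, breakdown and transport, 0 were called by edgeR, with medians of -0.12, -0.02, -0.05 and 0.07. At an unadjusted p under 0.05, 0, 1, 0 and 1 of them were higher and 0, 0, 3 and 0 lower, in the same order. Among all genes, 7.16% were higher and 5.61% lower. In that order, 9, 6, 14 and 5 members had a negative difference, and this was not tested. Of 24 LEA and dehydration genes, which protect drying cells, 19 had a negative difference, with a median of -0.18 in ABA and -0.02 in mock. Of these 24, 0 were called, and 1 was higher and 3 lower at an unadjusted p under 0.05. Suberin genes of the root barrier had a median of 0.01 over 18 genes. Over the 23 lists with no call, 313 genes were tested and 39 of them (12.5%) had an unadjusted p under 0.05, against 12.8% of all genes. These lists were picked for holding no call in the same comparison, so this share is partly set by the choice. Of the lists with calls, the iron list had 13 of 20 at such a p and the ER body and triterpene list 5 of 10.

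Lists that mark other tissues held no call. The medians were -0.09 for the endodermis, -0.01 for the root hair and epidermis, -0.08 for the phloem and 0.02 for the root cap, with 0 called by edgeR in each. Photosynthesis genes, a sign of green tissue, had a negative difference in 11 of 11 tested genes, with a median of -0.35 in ABA and -0.39 in mock and 0 called. Their summed level was 146 to 208 CPM in vnd7 ABA and 188 to 262 CPM in Col-0 ABA, ranges that overlap. Of the 4 members not tested, RBCS1B and RBCS2B had 0 reads in the 6 libraries. The part of such tissue in the calls above was not tested.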

How the data were processed

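Root RNA was sequenced in pairs of 150 bases from an unstranded library kit, per the labels' protocols. No batch or date is given. The authors deposited whole-number counts per gene without normalization, and the submitters' processing notes name HISAT2 and HTSeq. The build, annotation, tool versions and strand setting were not given in the sources used here.

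Among 34218 deposited features, with 0 columns left out, the 1385 features without a locus code took at most 0.00106% of a library. Counts were analysed in R 4.3.3 with edgeR 4.0.16: filterByExpr by group left 20869 genes, sizes were scaled with TMM factors, and all 18 libraries entered 1 quasi-likelihood model with 1 term per group (common biological coefficient of variation 0.106). Contrasts were adjusted by Benjamini-Hochberg over all genes, with a threshold of 0.05, and the fit was tested on simulated data. Alternatives were DESeq2 1.42.0, other scalings and filters, the 6 libraries alone, a replicate block and leaving out each library. Folds against 0 reads are bounds with a floor of 3 reads over the group, and with 1 to 3 reads an exact 95% interval is given. Both cover counting error only, since reads are not counted as unique molecules.

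Of 32833 locus codes, 32548 were found in TAIR10.1 (RefSeq), which gave names, neighbours, overlaps and the 300 bases before each gene. The authors' build being unnamed, its coordinates apply to the printed sequences and the gene positions given here only. Upstream windows were counted for genes whose biotype is protein coding, without VND7. Near-identical copies were searched with BLAST+ 2.17.0 at 95% identity over 50% of the exons. The 28 gene lists (413 loci, 387 tested) and the rule for named genes were chosen with earlier results of these data known, so a list that holds a call is no independent support. The rule named VND1 to VND7, the 12 largest called differences each way with a mean log2 CPM above 1, up to 4 called members per list, for the wall lists the 2 members nearest to a call, the loci next to VND7 and any gene called in the interaction (0). The other called genes, and the uncalled genes named beside a called one, were chosen after their values were seen.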

Additional observations from a re-analysis of the deposited data

How the results depend on the processing

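All 34 genes kept their sign under every alternative in which they were tested, and 17 were called under all of them. Leaving out 1 of the 6 libraries gave 24 to 35 calls, and 18 of the 34 were called in all 6 of these fits. Lower calls then numbered 11 to 23, and called members 0 to 4 for iron, 0 to 2 for the ER body and triterpene list, 0 to 1 for hypoxia and 0 to 1 for LEA genes. Without 1 library VND6 ranged from -0.021 (without vnd7 ABA 3) to 0.35. Leaving out 1 mock library gave 1 to 7 lower calls in mock. DESeq2 called 38 genes in mock (17 higher, 21 lower). In ABA it called 159 (78 higher, 81 lower), all 34 among them. Those 159 ABA calls held 2 NAC regulators, 1 gene of vessel death, 4 iron genes and 3 of the ER body and triterpene list. Without a filter on low counts 49 were called, 28 of them lower, and 2 of the triterpene list. With only the 6 libraries 56 were called (26 higher, 30 lower), 28 of the 34 among them, with 1 FLC and MAF gene and 2 of the triterpene list. A mean of at least 1 CPM gave 38 calls, unscaled library sizes 35, DESeq2's size factors 34.

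Same-numbered vnd7 and Col-0 libraries were not taken as pairs: their deviations correlated across genes at -0.01, -0.03 and -0.02 in ABA and at 0.20, 0.06 and 0.13 in mock, positive in all 3 mock pairs but not over 0.1 in each. With the replicate block 49 genes were called in ABA, 28 of them lower and all 34 among them, 7 were lower in mock, and 2 of the triterpene list were called. The cause of these shifts was not tested. At 3 libraries a group an exact two-sided permutation test of 1 gene cannot give a p below 0.1. Calls therefore rest on the fit across genes. The ABA calls of CBP60G, AT1G44030 and AT2G08735 rest on few reads.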

Other observations

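The called genes were spread over all 5 nuclear chromosomes. Chromosome 1, which carries VND7, held 11 of 5534 tested genes, chromosome 2 held 5 of 3172, chromosome 3 held 4 of 4116, chromosome 4 held 2 of 3178 and chromosome 5 held 12 of 4823. In TAIR10.1 the lowest coordinate was 26323086 for AT1G69890, 26566398 for AT1G70500, 27074702 for VND7 and 28515245 for AT1G75945. For the other called genes of chromosome 1 it lay between 208995 (FRO2) and 19963267 (HEI10). Whether a position near VND7 bears on these calls was not tested. Of the 34 genes, 31 are annotated as protein coding and 3 as non-coding. Exons of 4 of them overlap those of another annotated gene, and 2 have a near-identical copy.

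IQD13, a microtubule-associated gene of wall patterning, had 6.67, 6.4 and 9.14 CPM in vnd7 ABA, against 5.5, 4.51 and 4.3 CPM in Col-0 ABA, and did not pass (0.63 ± 0.23, adjusted p = 0.303).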
